A study of Mus musculus with 10 samples.

Results

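The genes described here are 40 plasma proteins of host defence and haemostasis that the liver makes, 17 of the complement system and 23 of coagulation, anticoagulation and fibrinolysis, followed in the livers of 10 mice by RNA-seq. They were chosen by gene symbol, with earlier results of these data known, and all 40 were found among the 41388 genes of the deposited tables. All 40 passed the filter of 1 CPM (the count scaled to the library total) in at least 1 library and were among the 13444 genes tested.

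Complement is a cascade of plasma proteases in which mannose-binding lectins or antibodies start the cleavage of C4, C2 and C3, and the terminal components then assemble a pore in the target membrane. Coagulation is a second protease cascade, in which vitamin K-dependent factors with their cofactors produce thrombin, thrombin turns fibrinogen into fibrin, and protein C, protein S and antithrombin hold the reaction back. Hepatocytes make most of both sets, and many of the genes respond to interleukin-6 in the acute phase of inflammation.

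All mice were C57B/6J animals aged 12 wk, and all carried Nampt alleles flanked by LoxP sites. The 2 WT refed mice were fasted for 22 h and refed for 2 h, whereas the 3 WT fasting mice were fasted for 24 h. The 5 NAMPT LKO fasting mice were fasted for 24 h as well and carried Albumin-cre. The study used it to delete Nampt, the gene of the rate-limiting enzyme of NAD+ salvage, in hepatocytes. Whether the other cells of the liver kept the gene was not measured in these data. The study's text calls the first group fed mice and gives a shorter fast, and no refed NAMPT LKO group was analysed here. Total counts ranged from 30603080 to 43434139 per library, and the 40 genes took 3.10% to 4.89% of them.

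Nampt itself was 12.0, 13.8, 11.6, 12.4 and 15.1 CPM after TMM normalization in NAMPT LKO fasting mice 1 to 5, against 62.1, 72.3 and 139 CPM in the WT fasting mice. The groups did not overlap, and the log2 fold change was -2.81 (SE 0.22, adjusted p = 0.00102 in edgeR's quasi-likelihood test with Benjamini-Hochberg adjustment). The tissue label was checked on hepatocyte markers, of which 7 of the 8 listed had a matching symbol and passed the filter. Their summed level was 74268 to 121423 CPM per library, against 203 to 526 CPM for 8 macrophage markers and 228 to 315 CPM for 8 markers of sinusoidal endothelium.

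Several libraries stood apart. NAMPT LKO fasting mouse 3 had a summed level of 30508 CPM over 16 acute phase genes that are not among the 40, where every other library had 9032 to 14077 CPM. NAMPT LKO fasting mouse 5 had 21.1% of its counts on the mitochondrial genome, against 7.42% to 12.9% in the others, and a TMM factor of 0.851. WT fasting mouse 3 had 1959 CPM over 12 interferon-induced genes, a list made after the data were seen, against 127 to 202 CPM elsewhere. Several fold changes that moved with 1 of these mice are given with and without it. Others are given as a range over other tests, scalings and sets of libraries.

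The levels spanned a wide range. On the RPKM scale, which divides the library-scaled count by exonic length, the mean over the 10 libraries ran from 1.28 for Cfb to 1895 for Fgb. Fgb, C3, Fgg, Vtn, Fga, Plg, Serpinc1 and Hrg were among the 100 most abundant of the genes tested, and 25 of the 40 were among the first 500. The median rank was 248 for the coagulation genes and 496 for the complement genes. Each gene's highest library exceeded its lowest by a factor between 1.24 (Masp2) and 3.08 (C4b), so that most of the differences described below are small against the range between genes.

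**Figure D1:**
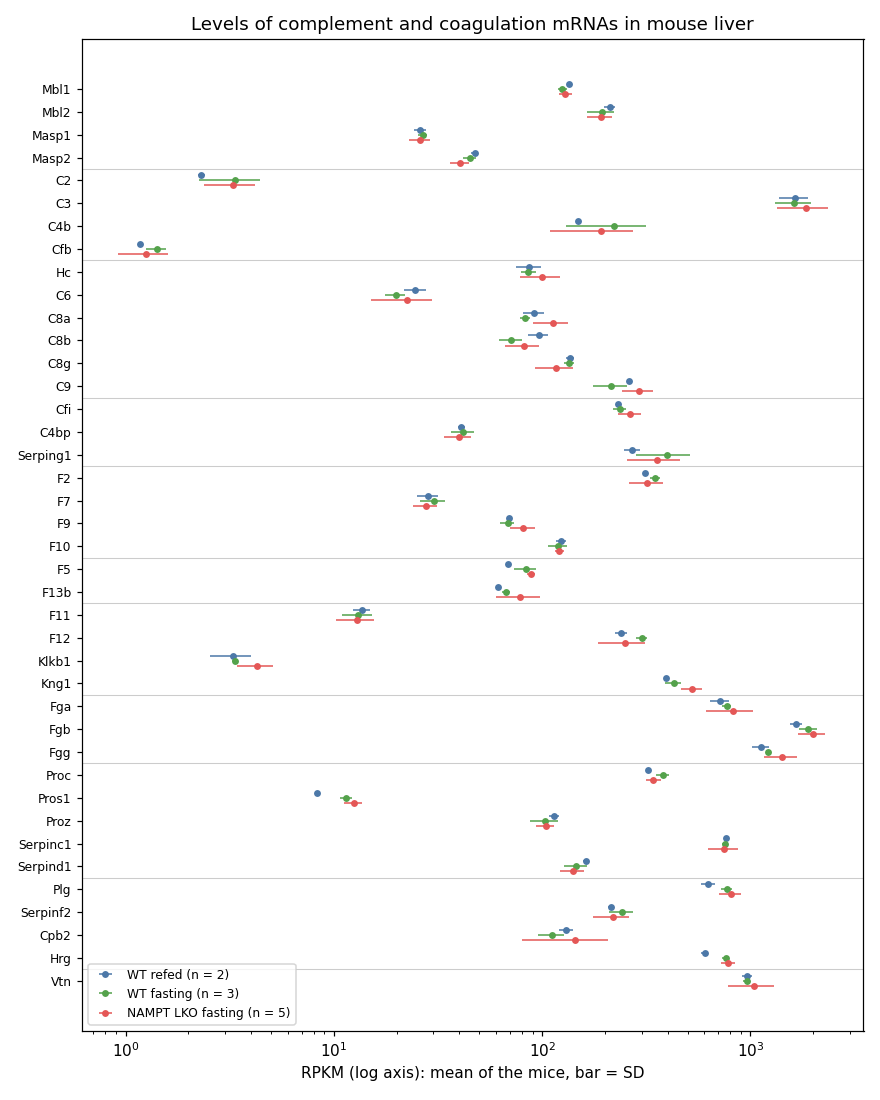
Level of each of the 40 mRNAs in RPKM on a log axis, as the mean and SD of 2 WT refed, 3 WT fasting and 5 NAMPT LKO fasting mice, with horizontal lines between roles. The levels run from about 1 for Cfb to over 1000 for C3, Fgb and Fgg, and for most genes the SD bars of the groups overlap.

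Some of these levels are set by the counting. The authors counted only reads that belong to a single gene, and 79.5% of the exonic bases of Cfb and 46.9% of those of C2 also lie in exons of other annotated genes, mainly the read-through gene Gm20547, which received 0 counts. In the same way 90.8% of the exonic bases counted for Klkb1 are shared with Cyp4v3 on the same strand. The identifier that stands for Klkb1 in the tables carries another symbol in GENCODE and was matched by position, since 14 of its 15 exons are exons of Klkb1. Masp2 shares 54.9% of its exonic bases with Tardbp on the opposite strand, and it is not stated whether strand was used. The levels of Cfb (91 to 192 counts per library), C2 (276 to 754) and Klkb1 (232 to 534) are therefore minimum values. C4b and Kng1 have near-identical neighbours, C4a and Kng2. Reads placed on both neighbours were left out of the count, so these levels may be too low as well.

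Fasting was compared with refeeding in WT livers first. No gene of either set passed the threshold, although more coagulation genes were higher than lower after fasting. Of the 23 coagulation genes 20 had a log2 fold change above 0 and 3 below, with a median of 0.17, and of the 17 complement genes 10 lay above 0 and 7 below, with a median of 0.04. Of all 13444 genes tested 7209 lay above 0 and 6232 below, with a median of 0.04. In edgeR's quasi-likelihood test 0 of 17 and 0 of 23 had an adjusted p at or under 0.05, where 7.04% of all genes tested did.

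At an unadjusted p under 0.05, the higher genes were Serping1 among the complement genes and F5, Hrg, Plg, Proc and Pros1 among the coagulation genes, where 10.4% of all genes were higher at that level. No gene of either set was lower, where 11.9% of all genes were. The other tests gave more calls among all genes, and all but edgeR's exact test did so among the coagulation genes. limma's voomWithQualityWeights called 0 complement and 6 coagulation genes (24.8% of all genes), edgeR's exact test 0 and 0 (8.87%) and DESeq2 0 and 2 (12.3%). All 3 WT fasting mice lay above both WT refed mice for 6 complement and 12 coagulation genes, where 24.5% of all genes did, and below them for 1 complement and 0 coagulation genes, where 25.1% did. As these are whole livers, fewer cells of a type and less RNA per cell cannot be told apart in any of the comparisons.

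The effect of the hepatocyte deletion under fasting was then examined. Among the complement genes 9 had a log2 fold change above 0 and 8 below in NAMPT LKO fasting against WT fasting livers, and among the coagulation genes 17 lay above and 6 below. The medians were 0.02 and 0.10, beside 0.00024 for all genes, of which 6731 lay above 0 and 6713 below. No complement gene (0 of 17) and no coagulation gene (0 of 23) passed in edgeR's quasi-likelihood test, where 0.00744% of all genes did, and that 1 gene is Nampt. limma's voomWithQualityWeights also called 0 and 0 (0.00744% of all genes), as did edgeR's exact test (0.179%) and DESeq2 (0.183%).

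At an unadjusted p under 0.05, C8a, C9 and Kng1 were higher (2.72% of all genes) and no gene of the sets was lower (3.31% of all genes). All 5 NAMPT LKO fasting mice lay above all 3 WT fasting mice for Hc, C8a and Kng1 (1.87% of all genes), and below them for F12 and Proc (2.12% of all genes). The 95% intervals of all 40 genes lay within a 2-fold change in either direction. Their median half-width was 0.32 on the log2 scale for complement and 0.30 for coagulation.

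The NAMPT LKO fasting livers were last compared with the WT refed livers, a contrast in which genotype and feeding differ together and cannot be told apart. It shares its groups with both comparisons above. Pros1, Kng1 and F5 were higher in NAMPT LKO fasting livers, and no gene was lower. In edgeR's quasi-likelihood test 3 of 23 coagulation and 0 of 17 complement genes were called higher, where 4.65% of all genes were, and 0 of 40 lower, where 6.58% were. At an unadjusted p under 0.05, 6 coagulation genes and 1 complement gene (C8a) were higher (12.6% of all genes) and 0 lower (13.5%).

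The number of calls in this contrast depended on the test. limma's voomWithQualityWeights called 7 coagulation genes and 2 complement genes, C2 and Serping1, where it called 31.8% of all genes. DESeq2 called 5 and 0 (16.8% of all genes), and edgeR's exact test called 1 and 0 (12.8%), the 1 gene being Pros1. All 5 NAMPT LKO fasting mice lay above both WT refed mice for 10 coagulation and 2 complement genes (15.7% of all genes) and below them for 0 and 1 (17.8%). The median log2 fold change was 0.22 for coagulation, 0.17 for complement and 0.03 for all genes.

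**Figure D2:**
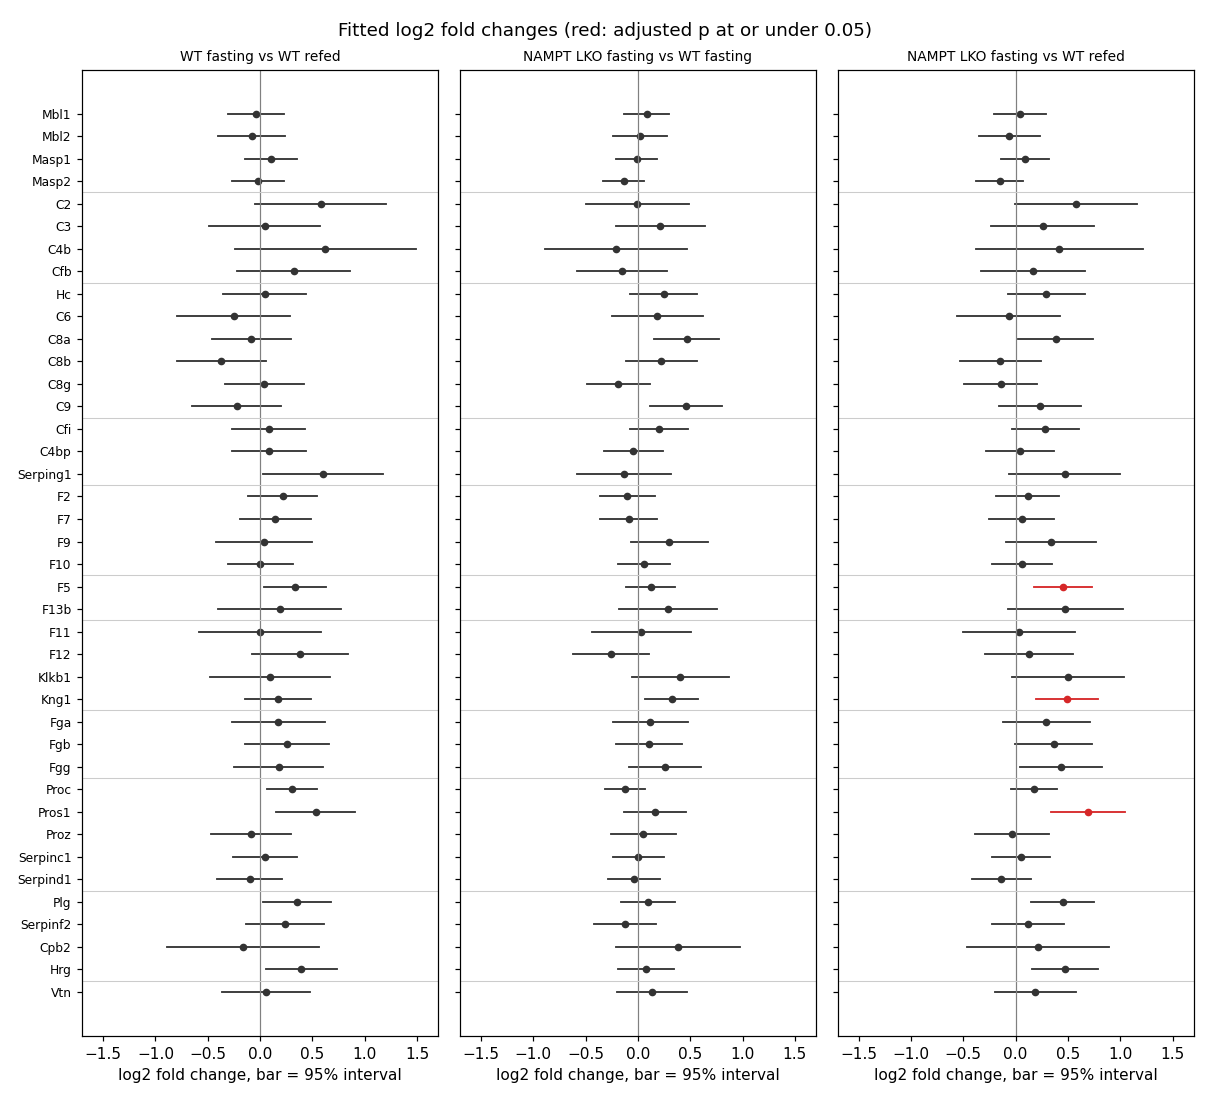
Fitted log2 fold change of each of the 40 genes with its 95% interval in the 3 comparisons, in the order of their roles, with genes at an adjusted p at or under 0.05 in red. Only F5, Kng1 and Pros1 are red, all in NAMPT LKO fasting against WT refed livers, and most of the other intervals include 0.

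Among the genes that start complement, the lectins Mbl1 and Mbl2 bind microbial sugars and the proteases Masp1 and Masp2 bound to them cleave C4 and C2. Their log2 fold changes were the smallest of the complement roles, from -0.08 (Mbl2) to 0.10 (Masp1) in WT fasting against WT refed livers and from -0.13 (Masp2) to 0.09 (Mbl1) in NAMPT LKO fasting against WT fasting livers. Mbl1 was 118 and 119 CPM in the refed mice, 108 to 120 CPM in the WT fasting mice and 112 to 137 CPM in the NAMPT LKO fasting mice. The groups overlapped fully.

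The convertase components are C2 and Cfb, which carry the protease of the C3 convertases, C4b, a gene of the C4 protein, and C3, on which all pathways meet. C4b was 814 and 813 CPM in the refed mice, 1053, 898 and 1805 CPM in WT fasting mice 1 to 3, and 1067, 928, 1742, 1109 and 586 CPM in NAMPT LKO fasting mice 1 to 5. All WT fasting mice lay above the refed mice, but the highest of them was the mouse with the interferon-induced genes, and the NAMPT LKO fasting mice lay on both sides of the refed mice. The log2 fold change of C4b was 0.62 in WT fasting against WT refed livers (95% interval -0.24 to 1.49, adjusted p = 0.386 in edgeR's quasi-likelihood test). C2 had a log2 fold change of 0.58 in the same contrast (adjusted p = 0.257) and Cfb a log2 fold change of 0.32 (adjusted p = 0.483), and all 3 WT fasting mice lay above both refed mice for each. Without WT fasting mouse 3 the log2 fold change was 0.26 for C4b and 0.33 for C2.

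C3 was 7124 and 8952 CPM in the refed mice and 9121, 6700 and 9025 CPM in the WT fasting mice. It was 9676, 7978, 13470, 7771 and 9198 CPM in NAMPT LKO fasting mice 1 to 5. The mouse with the acute phase genes was highest and the rest of the mice overlapped, and the log2 fold change between the fasting groups was 0.22 with it and 0.06 without it. C3 made up most of the summed complement level, which was 20490 CPM in that mouse and 12935 to 15054 CPM in the other NAMPT LKO fasting mice.

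The terminal components assemble the membrane attack complex, which begins with C5, the product of Hc, and adds C6, C8 (a complex of the alpha, beta and gamma chains from C8a, C8b and C8g) and a ring of C9. C8a (ENSMUSG00000035031, chromosome 4, minus strand, bases 104815679 to 104876398 of GRCm38) was 292 and 344 CPM in the refed mice and 278, 324 and 298 CPM in the WT fasting mice. It was 405, 356, 525, 363 and 424 CPM in NAMPT LKO fasting mice 1 to 5. Every NAMPT LKO fasting mouse lay above every mouse of both other groups.

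The log2 fold change of C8a was 0.47 in NAMPT LKO fasting against WT fasting livers (95% interval 0.16 to 0.78, adjusted p = 0.761 in edgeR's quasi-likelihood test over all genes). An exact permutation test over the mice gave p = 0.0357 (two-sided, 5 against 3 mice, smallest p possible 0.0179). This test was run on 9 genes, of which 4 were taken for their low p in this same contrast, and after Benjamini-Hochberg adjustment its lowest p was 0.161. Leaving out any mouse or changing the processing kept the log2 fold change of C8a between 0.32 and 0.52, and it was not called under any of these settings.

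C9 (ENSMUSG00000022149, chromosome 15, plus strand, bases 6445327 to 6498751) was 632 and 651 CPM in the refed mice, 479, 692 and 477 CPM in the WT fasting mice, and 655, 692, 788, 920 and 715 CPM in the NAMPT LKO fasting mice. WT fasting mouse 2 lay within the NAMPT LKO range, and the refed mice lay between the WT fasting mice. The log2 fold change in NAMPT LKO fasting against WT fasting livers was 0.46 (95% interval 0.11 to 0.80, adjusted p = 0.798 in edgeR's quasi-likelihood test), with p = 0.0536 in the exact permutation test (0.161 after adjustment).

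The chains of C8 did not move alike. C8b and C8a lie next to each other on chromosome 4, 11130 bases apart, and in NAMPT LKO fasting against WT fasting livers their log2 fold changes were 0.23 and 0.47, while that of C8g, on chromosome 2, was -0.19. Per length, the ratio of C8a to C8b RPKM was 0.952 in each refed mouse, 1.28, 1.09 and 1.15 in the WT fasting mice and 1.68, 1.21, 1.398, 1.32 and 1.30 in the NAMPT LKO fasting mice. The refed mice were the lowest, and the 2 fasting groups overlapped. Of the remaining terminal genes, Hc had a log2 fold change of 0.25 between the fasting groups, with 836 CPM in the acute phase mouse and 562 to 601 CPM in the other NAMPT LKO fasting mice, and without the acute phase mouse it was 0.13. For C6 it was 0.19.

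The complement regulators are factor I (Cfi), which cleaves C3b and C4b, C4bp, its cofactor, and Serping1, the C1 inhibitor. Serping1 was 564 and 641 CPM in the refed mice, 744, 805 and 1192 CPM in the WT fasting mice, and 796, 734, 1117, 913 and 608 CPM in the NAMPT LKO fasting mice. All WT fasting mice lay above the refed mice, and NAMPT LKO fasting mouse 5 fell among the latter. Its log2 fold change was 0.60 in WT fasting against WT refed livers (95% interval 0.02 to 1.18, adjusted p = 0.205 in edgeR's quasi-likelihood test). Without WT fasting mouse 3 it was 0.36. For Cfi and C4bp it was 0.08 and 0.09.

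The vitamin K-dependent procoagulant factors are prothrombin (F2), factor VII (F7), factor IX (F9) and factor X (F10), and they gave little difference. Their log2 fold changes ran from 0.00 (F10) to 0.22 (F2) in WT fasting against WT refed livers and from -0.10 (F2) to 0.30 (F9) in NAMPT LKO fasting against WT fasting livers. F9 was 194, 197, 207 and 226 CPM in NAMPT LKO fasting mice 1 to 4 and 322 CPM in mouse 5, and without mouse 5 the log2 fold change of F9 was 0.15.

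Factor V (F5) is the cofactor of factor X in making thrombin, and F13b encodes the carrier subunit of the transglutaminase that cross-links fibrin. F5 (ENSMUSG00000026579, chromosome 1, plus strand, bases 164151838 to 164220277) was 477 and 499 CPM in the refed mice and 692, 609 and 546 CPM in the WT fasting mice. It was 626, 668, 677, 640 and 739 CPM in the NAMPT LKO fasting mice. All fasting mice of either genotype lay above the refed mice.

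For F5 the log2 fold change in NAMPT LKO fasting against WT refed livers was 0.46 (SE 0.13, adjusted p = 0.0405 in edgeR's quasi-likelihood test), a factor of 1.37 (95% interval 1.13 to 1.66). In WT fasting against WT refed livers it was 0.34 (SE 0.14, adjusted p = 0.171), and between the fasting groups 0.12 (SE 0.11, adjusted p = 0.859). The call was lost under 12 of 21 alternatives, among them edgeR's exact test and the removal of either refed mouse, of WT fasting mouse 2 or of any of NAMPT LKO fasting mice 1 to 4. F13b was 147 and 151 CPM in the refed mice, 158 to 178 CPM in the WT fasting mice, 166 to 186 CPM in NAMPT LKO fasting mice 1 to 4 and 332 CPM in mouse 5. Its log2 fold change between the fasting groups was 0.29 with mouse 5 and 0.05 without it.

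Protein S (Pros1) is the cofactor of activated protein C (Proc), which inactivates factor V. Pros1 (ENSMUSG00000022912, chromosome 16, plus strand, bases 62854307 to 62929346) was 32.5 and 32.0 CPM in the refed mice, 45.1, 46.1 and 48.9 CPM in the WT fasting mice and 46.8, 48.2, 50.7, 46.3 and 69.4 CPM in NAMPT LKO fasting mice 1 to 5. Every fasting mouse lay above both refed mice, and the 2 fasting groups overlapped. This was the gene with the lowest p of the 40.

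Pros1 had a log2 fold change in NAMPT LKO fasting against WT refed livers of 0.69 (SE 0.16, adjusted p = 0.0198 in edgeR's quasi-likelihood test), a factor of 1.62 (95% interval 1.27 to 2.07). In WT fasting against WT refed livers it was 0.53 (SE 0.17, adjusted p = 0.0902), a factor of 1.45. Between the fasting groups it was 0.16 (SE 0.14, adjusted p = 0.854 in the same test). Over the alternative settings it lay between 0.012 and 0.21 there, and between 0.55 and 0.74 in NAMPT LKO fasting against WT refed livers. Without NAMPT LKO fasting mouse 5 the call held, and WT fasting against WT refed then passed as well. The call in NAMPT LKO fasting against WT refed livers was lost only where 1 of the 2 refed mice was left out, a fit in which the remaining refed mouse is assumed to vary like the other groups.

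The bases before the start of Pros1 and F5 are shown because these were the called genes for which a RefSeq promoter could be read. Lower case gives the 250 bases before the RefSeq start on the strand of the gene (build GRCm38.p6), chr16:62854057-62854306 for Pros1 and chr1:164151585-164151834 for F5. Neither window held the letters GTTAAT, the core of hepatocyte nuclear factor 1 sites, or CTGGGAA, the core of interleukin-6 response elements, on either strand. Pros1 held TTCNNNGAA, a form of the STAT site in which N is any base, 92 bases before its start.
Pros1: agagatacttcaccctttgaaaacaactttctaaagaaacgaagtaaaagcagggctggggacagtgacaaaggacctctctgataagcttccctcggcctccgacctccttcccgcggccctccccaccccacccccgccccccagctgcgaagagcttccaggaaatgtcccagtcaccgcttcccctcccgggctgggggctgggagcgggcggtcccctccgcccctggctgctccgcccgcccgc
F5: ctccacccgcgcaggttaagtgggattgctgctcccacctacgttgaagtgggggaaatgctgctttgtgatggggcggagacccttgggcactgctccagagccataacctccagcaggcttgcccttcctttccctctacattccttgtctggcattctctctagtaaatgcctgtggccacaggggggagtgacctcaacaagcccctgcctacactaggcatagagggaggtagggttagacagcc

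The other anticoagulants gave smaller values. Proc was 480 and 483 CPM in the refed mice, 566, 589 and 627 CPM in the WT fasting mice and 561, 538, 538, 549 and 539 CPM in the NAMPT LKO fasting mice, so that all 3 groups were apart. Its log2 fold change was 0.30 in WT fasting against WT refed livers (adjusted p = 0.126 in edgeR's quasi-likelihood test) and -0.12 in NAMPT LKO fasting against WT fasting livers (adjusted p = 0.839). Antithrombin (Serpinc1), heparin cofactor II (Serpind1) and protein Z (Proz), a cofactor in the inhibition of factor X, had log2 fold changes between -0.10 and 0.05 in both contrasts.

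The contact system starts coagulation on surfaces through factor XII (F12), prekallikrein (Klkb1) and factor XI (F11), and kininogen (Kng1) carries prekallikrein and factor XI in plasma and is the source of bradykinin. Kng1 (ENSMUSG00000022875, chromosome 16, plus strand, bases 23057865 to 23082068) was 1164 and 1221 CPM in the refed mice, 1464, 1336 and 1232 CPM in the WT fasting mice and 1565, 1487, 1914, 1641 and 1803 CPM in the NAMPT LKO fasting mice. The 3 groups were apart, with the refed mice lowest and the NAMPT LKO fasting mice highest, although WT fasting mouse 3 was close to the refed mice.

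For Kng1 the log2 fold change in NAMPT LKO fasting against WT refed livers was 0.50 (SE 0.13, adjusted p = 0.0385 in edgeR's quasi-likelihood test), a factor of 1.41 (95% interval 1.15 to 1.73). It was 0.17 (SE 0.14, adjusted p = 0.522) in WT fasting against WT refed livers and 0.32 (SE 0.12, adjusted p = 0.798) in NAMPT LKO fasting against WT fasting livers, where the exact permutation test over the mice gave p = 0.0357 (0.161 after Benjamini-Hochberg adjustment). Kng1 was itself taken for its low p in that contrast, where its log2 fold change lay between 0.16 and 0.40 over the alternative settings. The call was lost under 11 of 21 alternatives, among them edgeR's exact test and the removal of either refed mouse, of WT fasting mouse 2 or of NAMPT LKO fasting mouse 1, 3 or 4. Its neighbour Kng2, which is not among the 40 genes, had a log2 fold change of 0.59 in NAMPT LKO fasting against WT refed livers (adjusted p = 0.0388 in edgeR's quasi-likelihood test). Reads placed on both paralogs were left out of the count.

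Klkb1 was 9.01 and 6.57 CPM in the refed mice, 8.15, 8.40 and 8.40 CPM in the WT fasting mice and 7.42, 11.7, 10.6, 9.82 and 15.6 CPM in the NAMPT LKO fasting mice. The groups overlapped, and these counts come from the small part of the gene that no other gene shares. The log2 fold change between the fasting groups was 0.41 (95% interval -0.06 to 0.87, adjusted p = 0.837 in edgeR's quasi-likelihood test). It lay between 0.21 and 0.52 over the alternative settings. F12 was 568, 580 and 609 CPM in the WT fasting mice and 563, 502, 528, 543 and 318 CPM in the NAMPT LKO fasting mice, with a log2 fold change of -0.26 (adjusted p = 0.839) that was -0.13 without mouse 5. That of F11 was 0.03.

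**Figure D3:**
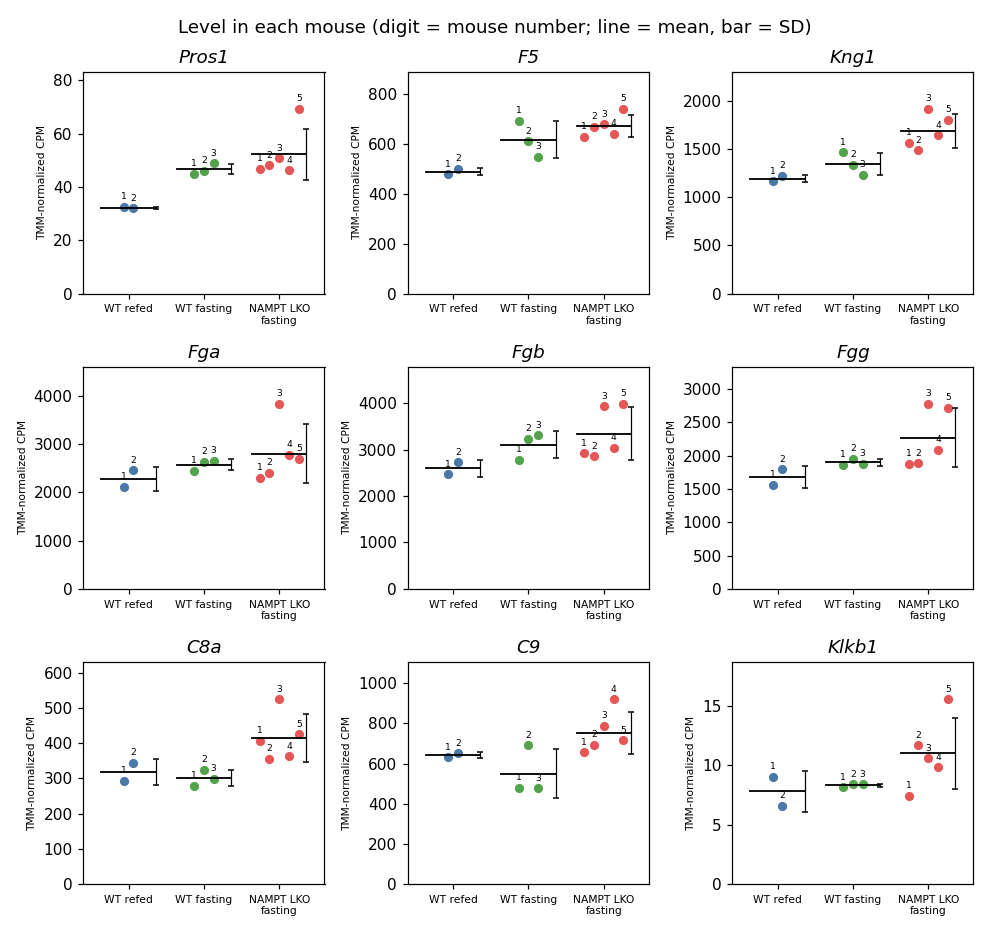
TMM-normalized CPM of Pros1, F5, Kng1, Fga, Fgb, Fgg, C8a, C9 and Klkb1 in each mouse, with the mouse number, the group mean as a line and the SD as a bar, on axes that start at 0. For Pros1 and F5 all fasting mice lie above both refed mice, and for the 3 fibrinogen chains NAMPT LKO fasting mouse 3 or 5 is the highest.

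Fibrinogen is a hexamer of paired alpha, beta and gamma chains, encoded by Fga, Fgb and Fgg, which stand together on chromosome 3 with Fga 11099 bases from Fgg and 8631 bases from Fgb. Fga was 2110 and 2460 CPM in the refed mice, 2453, 2630 and 2649 CPM in the WT fasting mice and 2300, 2404, 3831, 2779 and 2689 CPM in the NAMPT LKO fasting mice. Fgb was 2470 and 2730, then 2780, 3229 and 3311, and then 2923, 2856, 3935, 3039 and 3984 CPM in the same order. Fgg was 1562 and 1795, then 1858, 1952 and 1879, and then 1877, 1883, 2773, 2090 and 2717 CPM.

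All fasting mice of either genotype lay above the refed mice for Fgb and Fgg and not for Fga. The log2 fold changes in WT fasting against WT refed livers were 0.17 for Fga, 0.26 for Fgb and 0.18 for Fgg, with adjusted p from 0.442 to 0.663 in edgeR's quasi-likelihood test. Between the fasting groups they were 0.12, 0.11 and 0.26 (adjusted p from 0.837 to 0.895). Those of Fga and Fgb turned to -0.05 and -0.08 when NAMPT LKO fasting mice 3 and 5 were left out. Per length, Fgb exceeded Fga by a factor of 2.10 to 3.03 and Fgg exceeded Fga by 1.52 to 2.17 in RPKM, with the highest of both ratios in NAMPT LKO fasting mouse 5.

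The bases before the 3 fibrinogen genes are shown because the chains are made for 1 protein and their levels moved together in NAMPT LKO fasting mouse 3. Capitals mark GTTAAT or its reverse complement ATTAAC, and CTGGGAA or its reverse complement. The windows are the 250 bases before the RefSeq start at chr3:83025903-83026152 on the plus strand for Fga, chr3:83049864-83050113 on the minus strand for Fgb and chr3:83007474-83007723 on the plus strand for Fgg (build GRCm38.p6). The GENCODE start lies 60 bases further downstream for Fgb and 135 bases further for Fgg.
Fga: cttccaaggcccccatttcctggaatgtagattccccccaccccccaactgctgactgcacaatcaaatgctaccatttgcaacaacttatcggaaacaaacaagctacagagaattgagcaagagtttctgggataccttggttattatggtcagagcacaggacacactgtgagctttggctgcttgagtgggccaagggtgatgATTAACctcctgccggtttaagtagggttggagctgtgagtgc
Fgb: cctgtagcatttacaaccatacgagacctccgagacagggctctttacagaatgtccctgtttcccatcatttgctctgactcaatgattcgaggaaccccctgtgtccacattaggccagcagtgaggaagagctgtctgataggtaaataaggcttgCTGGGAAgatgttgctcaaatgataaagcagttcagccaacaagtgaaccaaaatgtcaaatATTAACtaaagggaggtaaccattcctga
Fgg: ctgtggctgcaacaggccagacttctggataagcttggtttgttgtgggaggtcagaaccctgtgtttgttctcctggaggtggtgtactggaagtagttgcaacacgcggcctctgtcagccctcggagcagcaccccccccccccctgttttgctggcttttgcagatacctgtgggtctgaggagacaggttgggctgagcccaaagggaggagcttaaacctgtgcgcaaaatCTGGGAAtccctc

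Fga held GTTAAT 43 bases before its start, Fgb held GTTAAT 29 bases before its start and CTGGGAA 91 bases before, and Fgg held CTGGGAA 13 bases before. TTCNNNGAA lay 234 bases before the start of Fga and 162 before that of Fgb. Over all 32851 RefSeq promoter windows of this length, 6.43% held GTTAAT and 9.10% held CTGGGAA on either strand. The genes described here were counted per gene, where any window of the gene held the letters, and not per window. GTTAAT was found for 4 of 11 complement genes with a promoter (C4bp, C8a, C8b and Hc). It was found for 5 of 20 coagulation genes (F13b, Fga, Fgb, Proz and Vtn). CTGGGAA was found for 1 of 11 (Masp2) and 3 of 20 (F9, Fgb and Fgg). The letters TTGCNNAA, a form of the C/EBP site in which N is any base, were found for 2 and 6 genes against 9.56% of all promoters, and TTCNNNGAA for 2 and 4 against 7.02%. TATAAA was found for 1 and 2 genes against 12.4% of all promoters, and CAAAGTCCA, a core of the HNF4 site, for none against 0.384%. These are matches of letters, and binding was not measured.

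Plasminogen (Plg) dissolves fibrin, alpha-2-antiplasmin (Serpinf2) and carboxypeptidase B2 (Cpb2) restrain it, and histidine-rich glycoprotein (Hrg) binds plasminogen and heparin. Plg was 1561 and 1745 CPM in the refed mice, 1989, 2132 and 2203 CPM in the WT fasting mice and 2084, 2012, 2601, 2132 and 2460 CPM in the NAMPT LKO fasting mice. Hrg was 972 and 1026, then 1349, 1336 and 1252, and then 1226, 1220, 1392, 1419 and 1684 CPM. For both genes all fasting mice lay above the refed mice, and the fasting groups overlapped.

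The log2 fold changes in NAMPT LKO fasting against WT refed livers were 0.45 for Plg (adjusted p = 0.0581 in edgeR's quasi-likelihood test) and 0.48 for Hrg (adjusted p = 0.056), just short of the threshold. In WT fasting against WT refed livers they were 0.35 and 0.39 (adjusted p = 0.187 and 0.157). Hrg and Kng1 are neighbours on chromosome 16, 96208 bases apart. Cpb2 was 136 to 217 CPM in every library but NAMPT LKO fasting mouse 3, where it was 362 CPM, and its log2 fold change between the fasting groups was 0.38 with that mouse and 0.11 without it. Serpinf2 and vitronectin (Vtn), an adhesive protein that also stabilizes an inhibitor of fibrinolysis, had log2 fold changes of 0.24 and 0.06 in WT fasting against WT refed livers and of -0.12 and 0.13 in NAMPT LKO fasting against WT fasting livers.

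The calls were rerun without WT fasting mouse 3 and NAMPT LKO fasting mice 3 and 5, a choice made after the data were seen. In WT fasting against WT refed livers 0 complement genes and 3 coagulation genes (F5, Hrg and Pros1) then passed, all higher, where 17% of all genes passed. Between the fasting groups 0 and 0 passed (0.0303% of all genes). Against the WT refed livers, 2 complement genes (C2 and Serping1) and 5 coagulation genes (F5, Hrg, Kng1, Plg and Pros1) passed in NAMPT LKO fasting livers, all higher, where 21.9% of all genes passed.

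**Figure D4:**
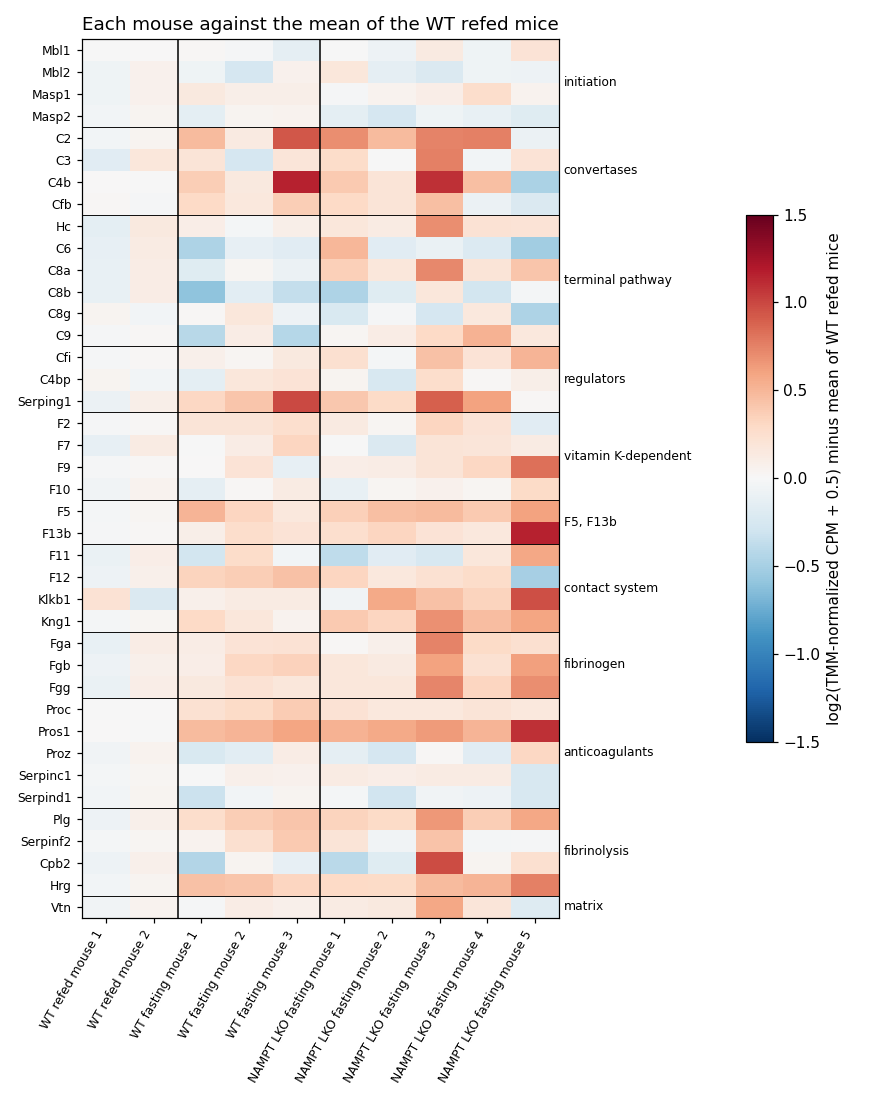
Log2 of the TMM-normalized CPM plus 0.5 in each mouse minus the mean of the 2 WT refed mice, for the 40 genes by role (red above, blue below). NAMPT LKO fasting mouse 3 is red for most complement, fibrinogen and fibrinolysis genes, mouse 5 is red for F9, F13b, Klkb1 and Pros1 and blue for C4b and F12, and WT fasting mouse 3 is red for C2, C4b and Serping1.

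Single mice carried much of the spread. NAMPT LKO fasting mouse 3 had the highest level of its group for 9 of 17 complement and 9 of 23 coagulation genes, against 17.4% of all genes tested, and the lowest for 1 of 40. In that mouse Saa1 and Saa2, serum amyloid A genes, were 3230 and 3109 CPM. The genes furthest above the other 4 mice there were Cpb2, C4b, C3, Fga and Serping1. The part that the acute phase genes of this mouse have in the spread of the 40 genes was not tested. NAMPT LKO fasting mouse 2 was highest for 0 of the 40 genes and lowest for 15, where 11.1% of all genes were highest and 12.2% lowest. WT fasting mouse 1 was the lowest of its group for 24 of the 40 genes, where 32.0% of all genes were. For the coagulation genes this was 18 of 23.

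NAMPT LKO fasting mouse 5 had the highest level of its group for 12 of the 40 genes and the lowest for 10, where 34.2% of all genes were highest and 35.2% lowest there. Its deviation from the other 4 mice went with the GC content of the longest transcript, with Pearson's r of -0.61 and Spearman's rho of -0.58 over the 40 genes, which share 1 library. Genes low in GC such as F9 (39.0% GC) and F13b lay above the other mice, and F12, the richest with 58.5%, and C4b lay below. In the other libraries of the fasting groups Pearson's r was between -0.48 and 0.43. With each library's GC trend removed, 1 coagulation gene (Pros1) was called in WT fasting against WT refed livers (10.6% of all genes) and 5 (F5, Hrg, Kng1, Plg and Pros1) in NAMPT LKO fasting against WT refed livers (15.2% of all genes).

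**Figure D5:**
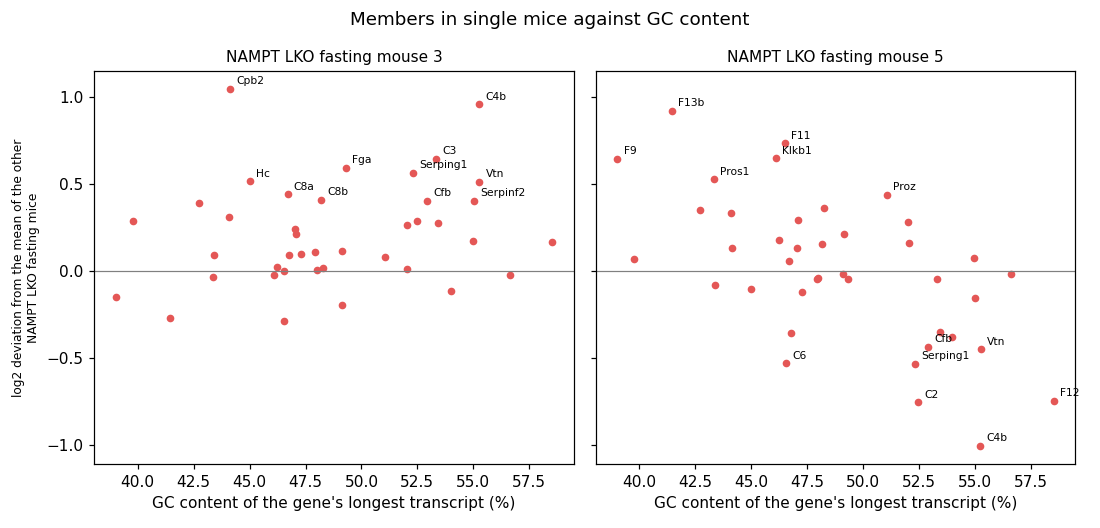
Log2 deviation of each of the 40 genes in NAMPT LKO fasting mice 3 (left) and 5 (right) from the mean of the other 4 mice of the group, against the GC content of the gene's longest transcript in percent. In mouse 5 the points fall from left to right (Pearson's r -0.61), and in mouse 3 they do not (0.22).

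WT fasting mouse 3, the mouse with the interferon-induced genes, had the highest level of its group for 8 of 17 complement and 12 of 23 coagulation genes, against 35.5% of all genes. C2 was 16.8 CPM in it, against 12.0 and 9.47 CPM in the other WT fasting mice. The summed macrophage markers were 526 CPM in it against 271 and 259 CPM in WT fasting mice 1 and 2. Only 2 of 5 neutrophil markers passed the filter, and their sum was 4.65 against 1.77 and 1.62 CPM. The part of these cells in the high C2, C4b and Serping1 of this mouse was not tested. Without it the median log2 fold change of the complement genes in NAMPT LKO fasting against WT fasting livers was 0.16 in place of 0.02, and no gene was called.

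Other genes of the pathways were read from lists of genes outside the 40. Of 22 further complement genes tested, 0 passed in any of the 3 comparisons in edgeR's quasi-likelihood test. Of all genes tested, 7.04% passed in WT fasting against WT refed livers and 0.00744% between the fasting groups. In NAMPT LKO fasting against WT refed livers 11.2% passed, 4.65% higher and 6.58% lower. Of 15 further coagulation and fibrinolysis genes, only Kng2 passed, in NAMPT LKO fasting against WT refed livers. Of 9 genes of the vitamin K cycle, carboxylation and export of factors, Lman1, the cargo receptor that carries factors V and VIII out of the endoplasmic reticulum, was lower in WT fasting than in WT refed livers (192 against 315 CPM, log2 fold change -0.72, adjusted p = 0.0126 in edgeR's quasi-likelihood test). Against WT refed livers, Lman1 (log2 fold change -0.56, adjusted p = 0.0186) and Ggcx, the carboxylase of the vitamin K-dependent factors (-0.67, adjusted p = 0.022), were lower in NAMPT LKO fasting livers. These genes act on the products of F5 and of Pros1, whose mRNA levels were higher in this contrast.

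Among 16 liver transcription factors and genes of interleukin-6 signalling, Cebpb (log2 fold change 1.48, adjusted p = 0.0168 in edgeR's quasi-likelihood test) and Cebpd (2.03, adjusted p = 0.000733) were higher in WT fasting than in WT refed livers, and Onecut1 (-3.80, adjusted p = 0.000307) and Foxa2 (-1.09, adjusted p = 0.035) were lower. In NAMPT LKO fasting against WT refed livers Cebpb (1.01), Cebpd (1.60) and Onecut1 (-3.20) passed in the same directions. None of the 16 passed between the fasting groups. Of all genes, 7.04% passed in WT fasting and 11.2% in NAMPT LKO fasting against WT refed livers, and 0.00744% between the fasting groups. Of 16 acute phase genes outside the 40, 1 was called higher in NAMPT LKO fasting than in WT refed livers, where 4.65% of all genes were. This was Cp, the plasma ferroxidase ceruloplasmin (log2 fold change 0.51, adjusted p = 0.0244 in edgeR's quasi-likelihood test).

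Markers of other liver cells also moved with the groups. The summed level of 5 cholangiocyte markers was 19.8 to 22.1 CPM in WT refed, 15.0 to 22.0 CPM in WT fasting and 33.5 to 53.7 CPM in NAMPT LKO fasting mice, with Spp1 and Epcam called higher in NAMPT LKO fasting against WT refed livers. Kdr of 8 endothelial and Col1a1 of 8 stellate cell and fibroblast markers were also called higher in that contrast (4.65% of all genes). Endothelial sums were 228 to 230 CPM in WT refed, 259 to 276 in WT fasting and 241 to 315 in NAMPT LKO fasting mice. In the same order, those of stellate cells and fibroblasts were 199 to 201, 203 to 255 and 244 to 313 CPM. The hepatocyte markers overlapped between all groups, with 83094 to 88178 CPM in WT refed, 84736 to 111475 CPM in WT fasting and 74268 to 121423 CPM in NAMPT LKO fasting mice. The part of these cells in the values of the 40 genes was not tested.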

How the data were processed

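Liver RNA was sequenced from 2 WT refed, 3 WT fasting and 5 NAMPT LKO fasting mice, 1 library per mouse, grouped by the sample labels. Nothing in the labels says how the animals were spread over preparations, so p-values measure the spread between these samples. Per the study's methods the authors selected polyadenylated RNA. Per the submitters' processing notes in the labels, they aligned the reads with STAR 2.5.1a (build GRCm38) and, with featureCounts 1.4.6-p5, made the deposited count of unambiguous, uniquely placed reads for each Ensembl gene. The study's methods name other versions of both tools. CPM values (the count over the library total) and RPKM values (CPM over exonic length) were also deposited by the authors. Both were recomputed from the counts without difference. Whether strand was used is not given in the sources used here.

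The 40 genes and the other lists were chosen with earlier results of these data known. Of the 41388 genes, 13444 exceeded 1 CPM in 1 library or more and were not rRNA genes. After TMM normalization the counts entered the quasi-likelihood test of edgeR 4.0.16 in R 4.3.3 (all 10 libraries in 1 fit with 1 mean per group, Benjamini-Hochberg adjustment over all genes, called at an adjusted p at or under 0.05), after the script had been tested on simulated data. Intervals are at 95%. Values in every library are given for members called in any comparison, for the 2 complement and 2 coagulation members with the lowest p between the fasting groups, and for the fibrinogen chains. Other members were described in full after their values were seen. Alternatives were limma 3.58.1 (voomWithQualityWeights), edgeR's exact test, DESeq2 1.42.0, RLE size factors, library size only, other filters, a loess correction for GC content (span 0.5), fits of 2 groups only, the replicate number as a block and the removal of single libraries. Within each group, no pair of libraries was identical or agreed within sampling noise, and pairs across groups were not compared in this way.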

Additional observations from a re-analysis of the deposited data

Results flagged for a closer look

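Within the 5 NAMPT LKO fasting mice, the gap of the most extreme mouse to its neighbour was compared with the whole range of the group for 42 values, the 40 genes and the 2 summed levels. For 5 samples a ratio above 0.71 is expected for about 1 in 20 values by chance, or 2.1 of 42, and 7 passed. The 42 values share the same 5 libraries and the sums hold the genes, so they are not independent. The groups of 2 and 3 mice were too small for this comparison.

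In mouse 3, the mouse with the high acute phase genes, Hc stood at 836 CPM against 562 to 601 CPM in the others, a ratio of 0.859. The summed complement level of that mouse was 20490 CPM against 12935 to 15054 CPM, a ratio of 0.72.

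The other 5 values were in mouse 5, the mouse whose levels went with GC content. F9 was 322 CPM against 194 to 226 CPM (ratio 0.751), F13b was 332 CPM against 166 to 186 CPM (0.881) and Pros1 was 69.4 CPM against 46.3 to 50.7 CPM (0.809). F12 was 318 CPM against 502 to 563 CPM (0.751) and Serpinc1 was 1331 CPM against 1687 to 1717 CPM (0.921). The GC content was 39.0% for F9, 41.4% for F13b and 43.4% for Pros1, which lay above the other mice, and 58.5% for F12, which lay below. Serpinc1 also lay below, with 46.8% GC, where the median of the coagulation genes was 47.3%. The part of GC content in these 5 values was not tested.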

How the results depend on the processing

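Direction and call were recomputed under other tests, scalings, filters and sets of libraries. For complement, 1 gene passed in WT fasting against WT refed livers at an unadjusted p under 0.05 (Serping1) and 2 did so in NAMPT LKO fasting against WT fasting livers (C8a and C9). In NAMPT LKO fasting against WT refed livers the complement count of 0 changed to 2 under voomWithQualityWeights, to 1 at an unadjusted p, 0 to 1 when 1 library was left out (C2 without NAMPT LKO fasting mouse 5) and 2 without WT fasting mouse 3 and NAMPT LKO fasting mice 3 and 5. The complement median between the fasting groups ranged from 0.0042 to 0.16 when 1 library was left out (0.16 without WT fasting mouse 3). For coagulation in WT fasting against WT refed livers, the count of 0 changed to 6 under voomWithQualityWeights, to 2 under DESeq2, to 3 in a fit of those 2 groups alone, 1 with the GC trend removed, 5 without NAMPT LKO fasting mice 3 and 5, 3 without WT fasting mouse 3 as well, 5 at an unadjusted p and 0 to 4 when 1 library was left out (4 without NAMPT LKO fasting mouse 5). Over all genes the calls moved as well, from 7.04% to 24.8%, 12.3%, 12.5%, 10.6%, 15.6% and 17% in the order of the first 6 of these settings, and to between 0.79% and 16.7% when 1 library was left out. Between the fasting groups 1 coagulation gene (Kng1) passed at an unadjusted p, and the median was -0.023 without NAMPT LKO fasting mice 3 and 5. In NAMPT LKO fasting against WT refed livers the 3 coagulation calls became 7 with voomWithQualityWeights, 5 with DESeq2, with the GC trend removed and without NAMPT LKO fasting mice 3 and 5, also without WT fasting mouse 3, 6 at an unadjusted p, 1 with the exact test, library size only, either other filter or only the 2 groups, and 0 to 5 when 1 library was left out (0 without either refed mouse, 1 without WT fasting mouse 2 or NAMPT LKO fasting mouse 1, 3 or 4, 5 without NAMPT LKO fasting mouse 5). Over all genes 11.2% were called there, 5.18% to 31.8% under these settings and 1.54% to 21.2% when 1 library was left out. The median there ranged from 0.15 to 0.34 when 1 library was left out (0.34 without NAMPT LKO fasting mouse 1). Of the log2 fold changes described in full, 5 turned sign, in 8 pairs of gene and setting. These were C8a at 0.035 and Klkb1 at -0.12 in WT fasting against WT refed livers without refed mouse 2 (C8a was -0.20 without refed mouse 1), and, between the fasting groups, Fga at -0.020 without NAMPT LKO fasting mouse 3 (0.18 without mouse 1), Fga at -0.048 and Fgb at -0.080 without mice 3 and 5, and F5 at -0.011, Fga at -0.024 and Fgb at -0.029 without WT fasting mouse 3 as well. The cause of these shifts was not tested.

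The labels do not say whether replicate numbers pair WT fasting with NAMPT LKO fasting mice. In their deviations from the group means, same-numbered mice correlated at 0.104, 0.0782 and 0.0971, each highest with its own number. Mice of different number correlated at -0.1665 to 0.0316. A shared preparation of same-numbered mice was not tested, and the main fit holds no term for it. With the replicate block over libraries 1 to 3 the complement and coagulation counts were 0 and 0 and the medians 0.06 and 0.06, as without the block. Every library held at least 30603080 counts, and Cfb had the fewest of the 40 genes with 91 to 192 per library. With 2 refed mice, 3 against 2 mice cannot reach a permutation p of 0.05, and the contrasts with them rest on the spread shared over all groups.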
